A study of Mus musculus with 2 samples.

Results

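The 9 genes described here encode transcription factors that direct mesenchymal cells toward bone, cartilage, tendon and limb connective tissue. They are *Runx2*, *Sp7*, *Dlx5*, *Dlx3*, *Twist1*, *Prrx1*, *Msx1*, *Sox9* and *Scx*, chosen by name as 9 of the 32285 genes in the deposited matrices. They were followed across fibroblast types, marrow stromal cells and osteoblasts sorted for tdTomato from intact bone with its muscle and from fracture callus. Every mouse carried Clec3b.creERT2 and the Ai14.R26.tdTomato reporter, so that tamoxifen turns on a lasting red label in cells that express *Clec3b*, a gene of fibroblasts in connective tissue. Tamoxifen preceded surgery by 2 weeks, the right femur then received a stabilized fracture, and tissue was taken 3 weeks after surgery. The intact and the fracture specimens of 3 littermates described as male were each pooled into 1 droplet-based single-cell RNA-seq library. The intact library stands for the limb that was not operated on, in mice that had the fracture, tamoxifen and both alleles as well, and condition and library cannot be told apart.

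These factors act in a rough sequence in bone. *Runx2* is required for osteoblasts to form, *Sp7* acts downstream of it, and the homeobox genes *Dlx5* and *Dlx3* promote *Runx2* expression and matrix genes. *Twist1*, *Prrx1* and *Msx1* mark undifferentiated limb and craniofacial mesenchyme, and the Twist1 protein can hold Runx2 in check. *Sox9* is the master factor of cartilage, and *Scx* that of tendon and ligament progenitors. A fracture callus passes through cartilage to woven bone, with periosteal, muscle and marrow cells as candidate sources.

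A cell was kept from 500 genes upward if mitochondrial UMIs did not exceed 10%. Of the cell barcodes the intact library kept 1207 of 1872 and the callus library 3295 of 3987, with 1 barcode in common. Before filtering they held 12112002 and 36714322 UMIs, and the median kept cell held 4939 and 6843. *Xist*, expressed from the inactive X of female cells, was found in 97.5% of the 198 intact fibroblasts and 98.1% of the 156 callus fibroblasts that held 5000 UMIs or more, whereas 4 Y-linked genes gave 1 and 0 UMIs, so both libraries go against the male label. Cells were assigned to gates by summed UMIs of marker genes, none of them a member. Each cell went to the list standing highest relative to its minimum. The gates held 282 intact and 209 callus fibroblasts, divided into *Pi16*-type (214 and 122 cells), *Col15a1*-type (47 and 26), tendon-like (12 and 44) and other fibroblasts (9 and 17). They also held 0 and 35 marrow stromal cells and 1 and 41 osteoblasts. No cell of either library entered the chondrocyte gate. Most other kept cells carried markers of blood lineages, endothelium or myofibres, and the tdTomato transcript was not analysed here, so the label of a single cell cannot be told.

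*Clec3b* itself stood at 1488 UMIs scaled to the sum of the gate (counts per 1000000, CPM) in intact and 1352 in callus fibroblasts, where 98.6% and 98.1% of cells had a UMI. *Clec3b* is among the markers of the fibroblast gate, with *Pdgfra*, *Ly6a*, *Dcn*, *Lum* and *Dpt*, so its levels partly describe the gates. It gave 1 UMI in all 41 callus osteoblasts and 1 UMI in all 35 marrow stromal cells. The summed level of 6 blood cell markers was 28.9 CPM in intact fibroblasts, 38.7 in callus fibroblasts, 44.2 in marrow stromal cells and 92.8 in osteoblasts, and its part in the results was not tested. The osteoblast gate was also the deepest, with a median of 20857 UMIs per cell against 6420 in marrow stromal cells and 7795 in callus fibroblasts. Levels are therefore given as CPM, and shares of cells after thinning every cell to 2500 UMIs. Their 95% intervals (exact Poisson for CPM, Clopper-Pearson for shares and a binomial split of counts for ratios) cover counting error only. With 1 library per condition and cells of 1 library not being replicates, no difference below has a test.

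Promoter sequences, 250 bases before to 50 after the start in RefSeq for GRCm38.p6, were matched for *Runx2*, *Twist1*, *Prrx1* and *Msx1*. The *Runx2* and *Prrx1* promoters are shown because the results below turn on them, *Runx2* as a factor that was high in both bone gates and *Prrx1* as one that was lower in osteoblasts than in fibroblasts. Both lie on the minus strand, at chr17:44814578-44814877 and chr1:163313601-163313900, and are printed 5′ to 3′. Capitals mark RUNX cores (TGTGGT, or ACCACA on the other strand) and E-boxes (CANNTG), the kind of site bound by Twist and Scx proteins, in *Runx2*, and homeobox cores (TAAT or ATTA) in *Prrx1*.
Runx2: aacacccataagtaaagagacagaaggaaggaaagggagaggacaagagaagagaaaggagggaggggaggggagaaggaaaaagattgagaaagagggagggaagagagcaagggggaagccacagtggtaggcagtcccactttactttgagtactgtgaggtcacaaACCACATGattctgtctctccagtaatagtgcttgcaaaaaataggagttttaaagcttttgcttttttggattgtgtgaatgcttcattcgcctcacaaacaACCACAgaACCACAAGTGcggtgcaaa
Prrx1: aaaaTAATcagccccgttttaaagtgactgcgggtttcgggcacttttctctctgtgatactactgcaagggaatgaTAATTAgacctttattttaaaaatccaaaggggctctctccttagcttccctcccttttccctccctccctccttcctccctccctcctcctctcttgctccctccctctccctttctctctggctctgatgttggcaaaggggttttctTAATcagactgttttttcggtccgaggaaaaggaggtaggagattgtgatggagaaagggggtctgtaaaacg
The *Runx2* window held 3 RUNX cores and 2 E-boxes, and both E-boxes overlapped a RUNX core. The *Prrx1* window held 4 homeobox cores, 2 of them overlapping, and neither a RUNX core nor an E-box. Among all 32851 promoters of the same length, 16.8% held a RUNX core, 72.3% an E-box and 58.0% a homeobox core. The *Twist1* window held none of these and had a GC content of 66%, against a median of 52.7% over all promoters, and the *Msx1* window, at 70% GC, held 1 E-box and 1 homeobox core. GC contents of the *Runx2* and *Prrx1* windows were 45.3% and 47.7%. A match of letters describes the window and is not a site of binding.

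Callus osteoblasts carried all 4 bone-forming factors, marrow stromal cells carried 3 of them, and fibroblasts nearly none. *Runx2* stood at 388 CPM (307 to 484) in marrow stromal cells and 230 CPM (198 to 264) in osteoblasts, intervals that do not overlap. Callus fibroblasts stood at 10.7 CPM (6.36 to 16.9), so *Runx2* was 21.4-fold higher in osteoblasts (13.2 to 36.9) and 36.2-fold higher in marrow stromal cells (21.5 to 64.2). *Sp7*, the zinc finger factor osterix, reversed the order of the bone gates, with 174 CPM (147 to 204) in osteoblasts and 68.8 CPM (37.6 to 115) in marrow stromal cells. It gave 0 UMIs in 282 intact and in 209 callus fibroblasts. Against a floor of 3 UMIs over the callus fibroblast gate it was 97.1-fold higher in osteoblasts and 38.5-fold higher in marrow stromal cells. Lower ends of the intervals were 78.0 and 27.4, and the marrow stromal value rests on 14 UMIs.

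The *Dlx* genes parted from each other in marrow stromal cells. *Dlx5* was at 108 CPM (87.1 to 133) in osteoblasts and 98.3 CPM (60.0 to 152) in marrow stromal cells, 2 levels that overlap, with a ratio of 1.10 (0.673 to 1.89). Fibroblasts gave 1 UMI of *Dlx5* in the intact and 0 in the callus library. Against the floor it was 60.6-fold and 55.0-fold higher in the bone gates, with lower ends of the intervals at 48.3 and 40.7. *Dlx3*, by contrast, was at 64.2 CPM (48.2 to 83.8) in osteoblasts, with 54 UMIs in 21 cells. It was at 0 UMIs in 35 marrow stromal cells, 4.36-fold lower against the floor (lower end of the interval 3.42). Its ratio over callus fibroblasts, 108 (18.5 to 4336), rests on 1 fibroblast UMI.

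**Figure D1:**
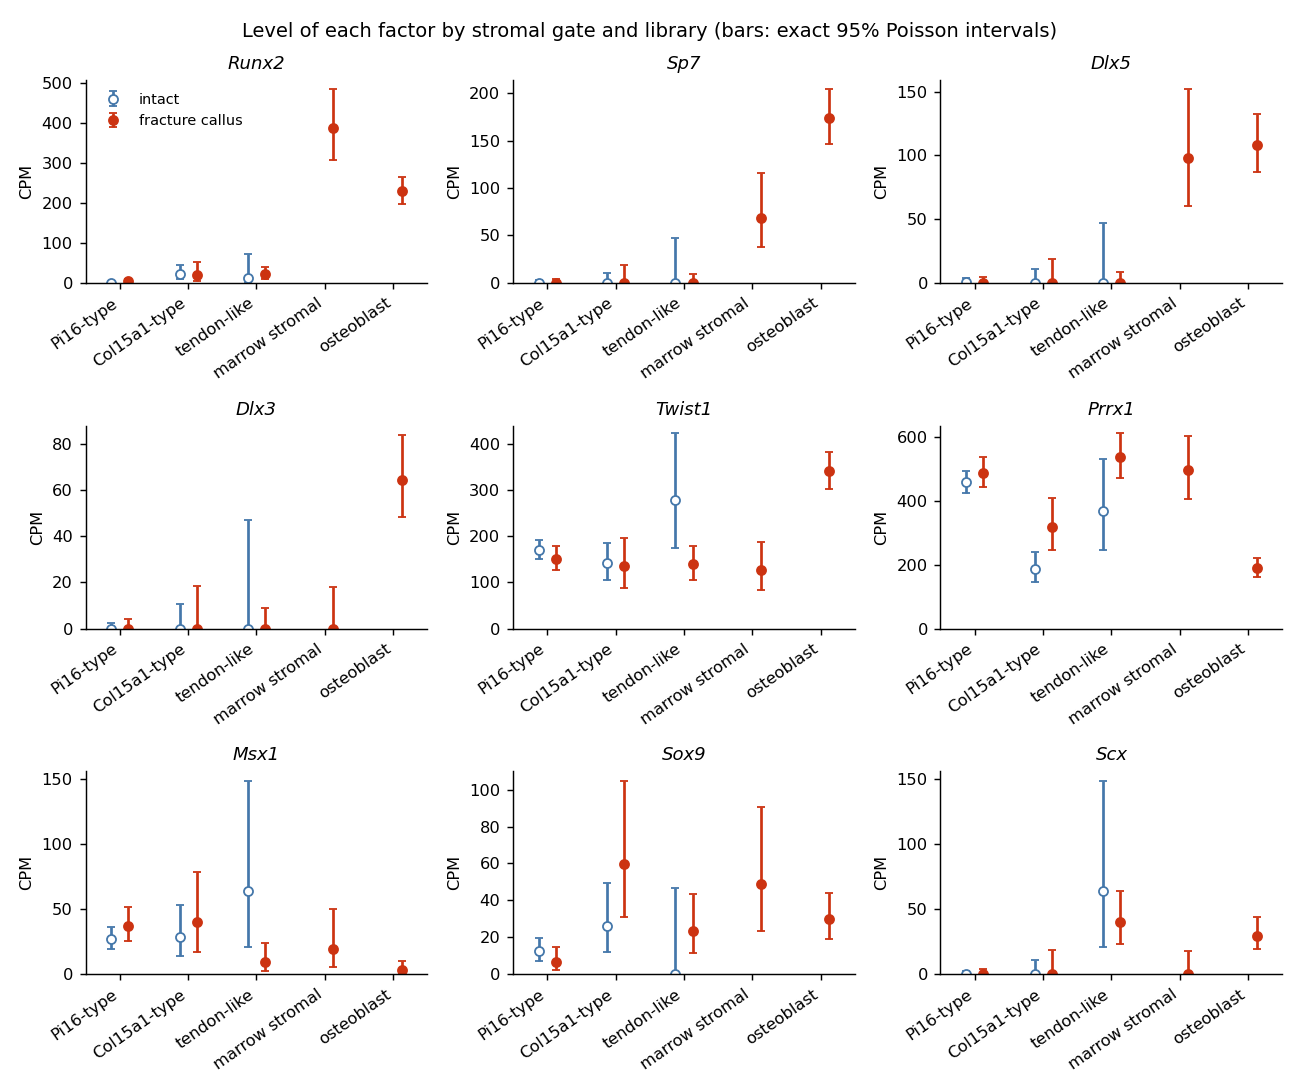
Level of each of the 9 factors (CPM, linear axis from 0) in 5 gates, 1 panel per gene, with open blue points for the intact and filled red points for the callus library and bars for the exact 95% Poisson interval. *Sp7*, *Dlx5* and *Dlx3* lie at or near 0 in every fibroblast gate and stand at 174, 108 and 64.2 CPM in osteoblasts, while *Prrx1* stands at 488 CPM in callus *Pi16*-type fibroblasts and at 190 in osteoblasts.

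Over all 9080 genes with at least 20 UMIs in callus osteoblasts and fibroblasts together, 6.64% were at least 2-fold higher in osteoblasts and 34.9% at least 2-fold lower. Of the 9 members, 6 were higher (*Runx2*, *Sp7*, *Dlx5*, *Dlx3*, *Twist1* and *Scx*), 2 were lower (*Prrx1* and *Msx1*) and *Sox9* was within 2-fold. *Sp7*, *Dlx5* and *Dlx3*, with 0, 0 and 1 UMIs in callus fibroblasts, reached the minimum of 20 through osteoblasts alone. They could therefore only be called higher, and their calls add nothing beside the share of all genes. *Msx1*, with 3 UMIs in osteoblasts, reached the minimum through fibroblasts alone. It could likewise only be called lower, and its call adds nothing either. The median gene stood at -0.59 on the log2 scale, and when UMIs of the marker lists, *Sparc* and *Spp1* were left out of the denominator 1171 genes were higher and 1928 lower, in place of 603 and 3169. Relative to the median gene, *Runx2* was 5.01 higher in osteoblasts on the log2 scale, *Scx* 2.14, *Twist1* 1.81 and *Sox9* 1.23 higher, and *Prrx1* was at -0.77 and *Msx1* at -2.42. The median gene was at 0.17 in marrow stromal cells over fibroblasts and at -0.69 in osteoblasts over marrow stromal cells.

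Of 8642 genes tested in marrow stromal cells over callus fibroblasts, 17.6% were at least 2-fold higher and 17.3% lower. Only 6 members had 20 UMIs there, and of these *Runx2*, *Dlx5* and *Sox9* were higher and *Twist1*, *Prrx1* and *Msx1* within 2-fold. *Dlx5* had 0 UMIs in callus fibroblasts and could only be called higher. Its 20 marrow stromal UMIs lie just at the minimum, and its call was kept in 7 of 9 alternatives. Between osteoblasts and marrow stromal cells, where 8.05% of 5692 genes were higher in osteoblasts and 37.3% lower, 4 of 8 members were higher (*Sp7*, *Dlx3*, *Twist1* and *Scx*), *Prrx1* was lower and 3 were within 2-fold. *Dlx3* and *Scx* had 0 UMIs in marrow stromal cells and could only be called higher. *Prrx1* was at 0.383 (0.297 to 0.497), -0.69 relative to the median gene, and at 0.522 as a mean of per-cell CPM, no longer past 2-fold. *Runx2* was at 0.591 of its marrow stromal level in osteoblasts (0.453 to 0.778), which is -0.06 relative to the median gene, and *Sp7* was 2.52-fold higher (1.46 to 4.73). The marrow stromal gate was set on *Lepr*, *Adipoq*, *Kitl*, *Cxcl12*, *Hp* and *Esm1*. Its cells also carried *Alpl*, the alkaline phosphatase of mineralizing cells, at 487-fold their level in callus fibroblasts, and the name rests on these markers only. Unsupervised clustering put all 35 marrow stromal cells with 9 gated osteoblasts in 1 cluster and the other 32 callus osteoblasts in another, and by the same markers both clusters were named osteoblast.

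**Figure D2:**
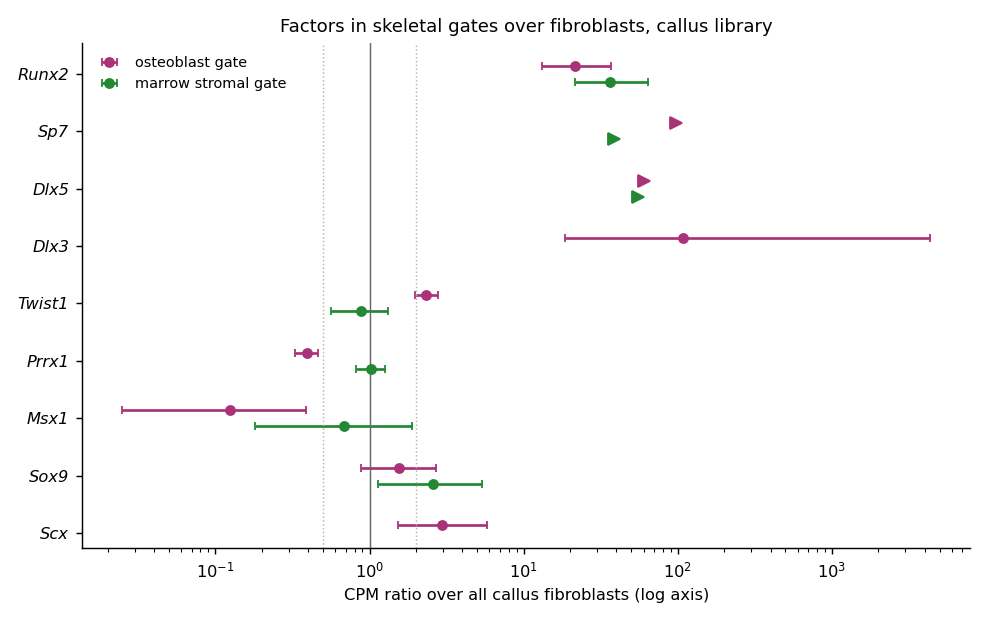
Ratio of CPM over all callus fibroblasts (logarithmic axis) for osteoblasts and marrow stromal cells, with 95% counting intervals and dotted lines at 2-fold. Arrows give folds against a floor of 3 UMIs where fibroblasts had 0. *Runx2* stands at 21.4 in osteoblasts and 36.2 in marrow stromal cells, *Prrx1* at 0.391 and 1.02, and the *Twist1* point at 2.34 falls to 1.69 without the 1 osteoblast that held 87 of its 287 UMIs.

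At equal depth single cells separated both bone gates from fibroblasts for *Runx2*, *Sp7* and *Dlx5*, but not the bone gates from each other. After thinning to 2500 UMIs, *Runx2* was detected in 55.2% of 29 marrow stromal cells (35.7 to 73.6%) and 48.6% of 37 osteoblasts (31.9 to 65.6%), against 2.65% of 189 callus and 0.781% of 256 intact fibroblasts. Among other callus cells it was detected in 1.08% of 464 B-lineage cells (median 3224 UMIs before thinning), 3.48% of 719 neutrophil-like cells (median 8696), 0 of 77 endothelial and 0 of 119 erythroid cells. In the intact library it was found in 0 of 195 B-lineage and 4.64% of 280 neutrophil-like cells. Neutrophil-like cells may express *Runx2* themselves, and the interval of the callus fibroblasts (0.864 to 6.07%) overlaps that of the endothelial cells (0 to 4.68%), so no fibroblast expression is read from these shares. *Sp7* was detected in 37.8% of osteoblasts and 17.2% of marrow stromal cells, *Dlx5* in 29.7% and 20.7%, and *Dlx3* in 8.11% and 0%, with overlapping intervals for each gene. None of these 3 genes was detected in the thinned B-lineage or neutrophil-like cells. At this depth 0 of 29 marrow stromal cells for *Dlx3*, taken as a limit of 3 cells, allows up to 10.3% of cells with a UMI.

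Unthinned, *Runx2* and *Sp7* were found together in 32 of 41 osteoblasts, with *Runx2* alone in 1 and *Sp7* alone in 2. In marrow stromal cells they were together in 9 of 35, *Runx2* was alone in 14 and *Sp7* was never alone. All 4 bone-forming factors were found in 15 osteoblasts and in no marrow stromal cell. The 3 osteoblasts with none of them held 1759 to 2570 UMIs, against a median of 23145 in the rest, and the 11 marrow stromal cells with none had a median of 2220 against 7213. Detection of pairs thus moved with depth, and after thinning *Runx2* and *Sp7* were together in 7 of 37 osteoblasts and 2 of 29 marrow stromal cells. *Dlx3* occurred only beside *Sp7* in unthinned osteoblasts (21 cells), but of the 3 thinned cells with *Dlx3* only 1 had *Sp7*. A median of 6 members per cell was found in osteoblasts (0 to 8), of 2 in marrow stromal cells (0 to 5) and of 2 in callus fibroblasts (0 to 5).

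**Figure D3:**
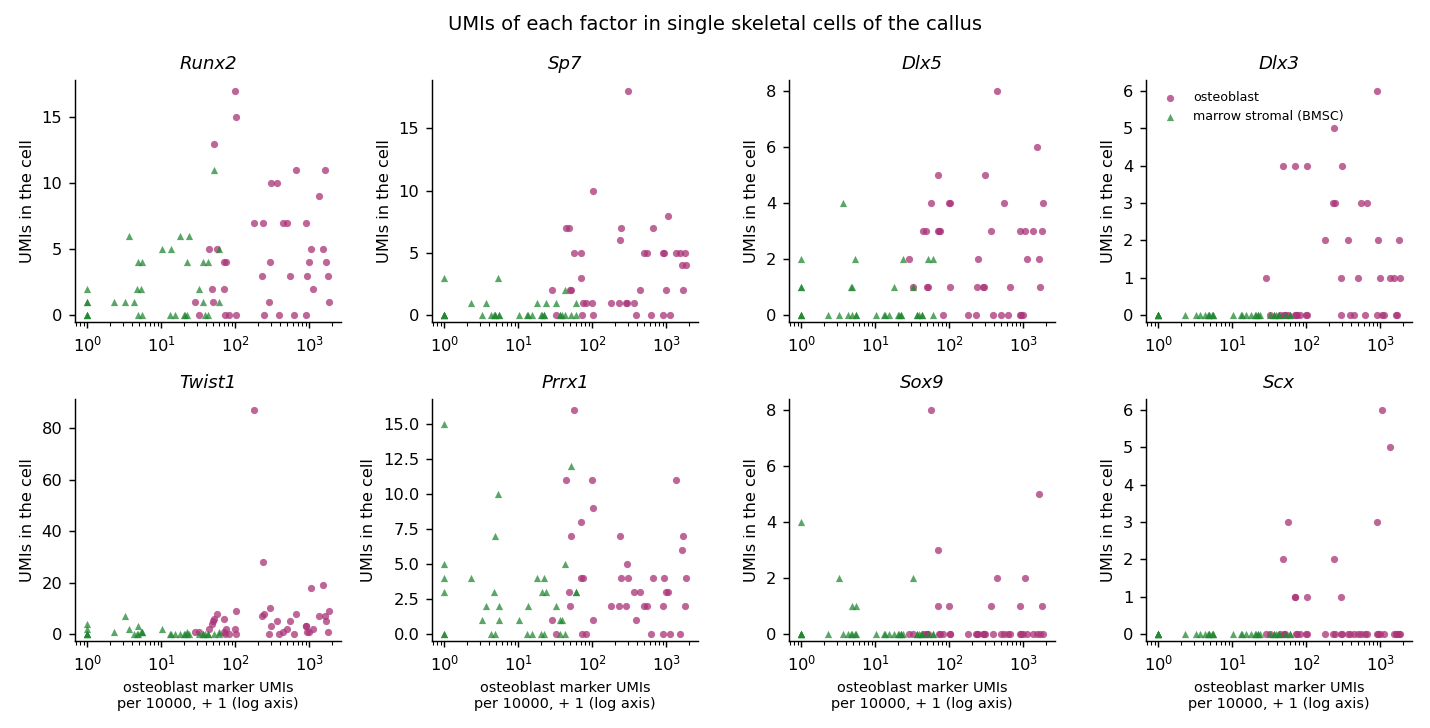
UMIs of 8 members per callus cell against the summed osteoblast marker UMIs per 10000 plus 1 (logarithmic horizontal axis), with circles for the 41 osteoblasts and triangles for the 35 marrow stromal cells. *Dlx3* is above 0 in 21 osteoblasts and in no marrow stromal cell, and 1 osteoblast stands far above the rest for *Twist1* with 87 UMIs.

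Osteoblasts were not uniform in these factors. A split of the gate at 100 marker UMIs per 10000, chosen after the values had been seen, gave 13 cells with a low share (median 8669 UMIs) and 28 with a high share (median 25894). *Prrx1* was at 441 CPM in the low and 135 in the high cells, *Runx2* at 355 and 202, *Dlx5* at 217 and 84.2 and *Sox9* at 85.6 and 17.4. *Sp7* was at 237 (166 to 328) and 160 CPM (131 to 192), and *Dlx3* at 59.2 (27.1 to 112) and 65.3 (47.6 to 87.4), with overlapping intervals for each gene. *Twist1* was at 250 and 361 CPM, but at 255 and 246 without the 1 cell richest in it in each group. Left out in the same way, *Runx2* was at 268 and 192 CPM, *Dlx5* at 213 and 75.2, *Prrx1* at 434 and 128, *Sp7* at 212 and 141, *Dlx3* at 36.5 and 58.9 and *Sox9*, with 8 of its 13 low-share UMIs in 1 cell, at 42.6 and 10.6. The low cells also had more of the marrow stromal gene *Cxcl12* (1547 against 298 CPM, or 890 against 102 without the richest cells), of *Mmp13*, a collagenase of late cartilage and young osteoblasts (3252 against 390, or 2075 against 195), and of *Spp1* (59423 against 7336, or 45681 against 4203). *Col1a1*, the chief collagen of bone matrix and itself a large part of all UMIs, was at 32710 and 125046 CPM, or 17180 and 121415. Its part in the other differences, through the denominator, was not tested, and no median gene is given for this split.

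*Twist1* and *Prrx1*, by contrast with the bone-forming factors, were present in every stromal gate of both libraries. *Pi16*-type fibroblasts held *Prrx1* at 459 CPM (426 to 494) in the intact library and 488 CPM (443 to 536) in the callus. It was at 538 CPM (470 to 612) in callus tendon-like and 496 CPM (404 to 603) in marrow stromal cells. These levels overlap. Osteoblasts lay below them at 190 CPM (162 to 222), 0.391 of all callus fibroblasts (0.328 to 0.464) or -0.77 on the log2 scale relative to the median gene. *Col15a1*-type fibroblasts stood at 187 CPM (145 to 239) in the intact library, which overlaps the osteoblast level, and at 320 CPM in the callus. The osteoblast ratio over callus fibroblasts was 0.567 when matrix and marker UMIs were left out of the denominator. It was 0.514 with clusters in place of gates, where the osteoblast clusters also held the 35 marrow stromal cells. In neither case was it past 2-fold. At equal depth *Prrx1* was detected in 66.1% of callus fibroblasts, 58.6% of marrow stromal cells and 37.8% of osteoblasts.

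Fibroblasts held *Twist1* at 171 CPM (154 to 190) in the intact library and 146 CPM (128 to 165) in the callus. It was at 128 CPM (83.5 to 187) in marrow stromal cells and at 341 CPM (303 to 383) in osteoblasts. The osteoblast level rests in part on 1 cell, which held 87 of the gate's 287 *Twist1* UMIs in a total of 30826. Without it osteoblasts stood at 247 CPM (214 to 284), and the ratio over callus fibroblasts fell from 2.34 (1.97 to 2.79) to 1.69 (1.40 to 2.05), above 1 but within 2-fold. The thinned share of cells was 43.2% in osteoblasts and 25.9% in callus fibroblasts. After thinning, *Twist1* and *Prrx1* were found together in 9 of 37 osteoblasts, 2 of 29 marrow stromal cells and 33 of 189 callus fibroblasts.

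*Msx1*, a homeobox factor of proliferating limb mesenchyme, was found at low level in fibroblasts but was not restricted to them. *Pi16*-type cells stood at 26.8 CPM (19.2 to 36.4) in the intact library and 36.8 CPM (25.4 to 51.7) in the callus, and *Col15a1*-type cells at 28.8 and 39.9 CPM. Osteoblasts gave 3 UMIs in 41 cells, 0.125 of the level of callus fibroblasts (0.0249 to 0.387). Marrow stromal cells gave 4 UMIs, a ratio of 0.688 (0.180 to 1.88). *Msx1* was also at 39.7 CPM in intact and 51.7 CPM in callus endothelial cells, and stromal cells held 68.8% of its callus UMIs.

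*Sox9* was low in every stromal gate, and most chondrocyte markers other than *Col2a1* were found in few osteoblasts. In the callus it was at 59.9 CPM (31.0 to 105) in *Col15a1*-type fibroblasts, 49.2 CPM (23.6 to 90.4) in marrow stromal cells, 29.7 CPM (19.2 to 43.9) in osteoblasts and 6.70 CPM (2.46 to 14.6) in *Pi16*-type fibroblasts. The first 3 intervals overlap, and the *Pi16*-type lies below them. Its ratio over callus fibroblasts was 2.58 (1.13 to 5.38) in marrow stromal cells, or 1.64 without the 1 cell that held 4 of their 10 UMIs, and 1.56 (0.886 to 2.72) in osteoblasts. All 10 osteoblasts with a *Sox9* UMI also had *Runx2* and *Sp7*, a pair found in 32 of all 41 osteoblasts. After thinning *Sox9* was found with *Runx2* in 2 osteoblasts and without it in 1, with the same counts for *Sp7*. Of the chondrocyte markers, *Col2a1*, the collagen of cartilage, gave 201 UMIs in 13 osteoblasts, 113 of them in the cell with the second highest *Sox9* count (5 UMIs). *Acan*, the cartilage proteoglycan, gave 54 UMIs, of which 52 were in the cell with the highest *Sox9* count (8 UMIs). *Matn3* was at 0, and *Col9a1*, *Snorc* and *Hapln1* gave 1, 1 and 7 UMIs.

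Among fibroblasts *Scx* was found only in tendon-like cells, and in few of them. It was in 2 of 12 intact tendon-like cells and in 6 of 209 callus fibroblasts, all of them tendon-like. Tendon-like cells, gated on *Thbs4*, *Tnmd*, *Fmod* and 5 other tendon genes, held *Scx* at 63.6 CPM (20.7 to 148; 5 UMIs) in the intact and 40.1 CPM (23.4 to 64.2; 17 UMIs) in the callus library. *Pi16*-type and *Col15a1*-type fibroblasts gave 0 UMIs in both libraries. Against the floor, tendon-like cells were 32.4-fold above *Pi16*-type cells in the intact and 12.0-fold above them in the callus library. The lower ends of the intervals were 17.8 and 8.72. In the intact library 4 of the 5 UMIs lay in 1 cell, and the other 11 tendon-like cells held 1 UMI, too few for a fold. Osteoblasts also carried *Scx*, at 29.7 CPM (19.2 to 43.9), a level that overlaps that of callus tendon-like cells. This was 2.94-fold the callus fibroblast level (1.52 to 5.79). It lay in 10 of 41 osteoblasts, which all had *Sp7* as well, but after thinning in 1 with *Sp7* and 1 without. Marrow stromal cells gave 0 UMIs, with an upper limit of 18.1 CPM. In the intact library stromal cells held 41.7% of its 12 UMIs.

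Within the fibroblasts, *Col15a1*-type and *Pi16*-type cells differed in *Prrx1* in both libraries. The *Col15a1*-type level was 187 CPM (145 to 239) in the intact library, 0.408 of the *Pi16*-type level (0.312 to 0.527), and 320 CPM (246 to 408) in the callus, a ratio of 0.655 (0.496 to 0.853). Of 4 members with 20 UMIs in the intact library, *Sox9* was past 2-fold higher at 2.09 (0.832 to 4.85; 1.89 with the gate minimum doubled, 1.44 with clusters and 1.79 without its richest cells), *Prrx1* past 2-fold lower and *Twist1* and *Msx1* were neither, while 8.33% of 8168 genes were higher and 11.1% lower. In the callus, where 7.24% of 6737 genes were higher and 11.2% lower, 3 members had 20 UMIs and none was past 2-fold. *Sox9* there was 8.95-fold higher in the *Col15a1*-type (3.11 to 29.1) on 18 UMIs in all. *Twist1* ratios were 0.828 and 0.895 and *Msx1* ratios 1.08 and 1.08 in the 2 libraries. *Runx2* gave 8 UMIs in 8 of 47 intact *Col15a1*-type cells and 0 in 214 *Pi16*-type cells, 11.8-fold against the floor (lower end of the interval 7.53). In the callus it gave 4 UMIs, 3 of them in 1 cell, against 3 UMIs.

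In tendon-like cells over *Pi16*-type cells, 1 of 3 tested members was higher and none lower in the intact library, where 11.3% of 7667 genes were higher, 25.3% lower and the median gene stood at -0.18. In the callus none of 3 was higher and 1 lower, with 7.55% of 7308 genes higher and 10.5% lower. The member called was *Msx1* in both cases, at 63.6 CPM (20.7 to 148) from 5 UMIs in 12 intact tendon-like cells, and at 9.44 CPM (2.57 to 24.2) from 4 UMIs in 44 callus ones. *Prrx1* ratios were 0.804 in the intact and 1.10 in the callus library, and *Twist1* ratios 1.64 (1.01 to 2.54) and 0.924. *Runx2* was at 21.2 CPM in callus tendon-like cells, from 9 UMIs in 8 cells, 6.34-fold its *Pi16*-type level, and 7 of the 10 *Sox9* UMIs of these cells lay in 1 cell.

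Between the libraries the fibroblast levels of 4 of the 6 tested members were within 2-fold. Of 9997 genes tested, 4.34% were at least 2-fold higher in callus fibroblasts and 2.68% lower, and of 6 members *Runx2* and *Scx* were higher, none was lower and 4 were within 2-fold. *Prrx1* was 1.17-fold (1.06 to 1.29), *Twist1* 0.852-fold (0.720 to 1.01), *Msx1* 1.03-fold (0.682 to 1.53) and *Sox9* 1.28-fold (0.751 to 2.17) its intact level. *Scx* was 4.07-fold higher (1.44 to 14.1), from 5 UMIs in the intact and 17 in the callus library, all of them in tendon-like cells. Those cells made up 12 of 282 intact and 44 of 209 callus fibroblasts. Their own *Scx* level was 63.6 CPM in the intact and 40.1 CPM in the callus library. Without the richest cell of each it was 14.5 and 26.8 CPM, so no direction is read from these levels. *Runx2* was 2.39-fold higher (1.02 to 6.04), at 9 and 18 UMIs, and it was no longer past 2-fold under 2 of 9 alternatives, at 1.77 with the gate minimum doubled and 1.83 as a mean of per-cell CPM. Of its intact and callus UMIs, tendon-like cells held 1 and 9, *Pi16*-type cells 0 and 3 and *Col15a1*-type cells 8 and 4. The part of the larger share of tendon-like cells in this ratio was not tested. *Sp7* was at 0 UMIs in both libraries. Within types, *Prrx1* was 1.06-fold in *Pi16*-type and 1.71-fold (1.19 to 2.45) in *Col15a1*-type cells. *Sox9* was 0.539-fold (0.176 to 1.40) in *Pi16*-type and 2.31-fold (0.893 to 6.20) in *Col15a1*-type cells. *Runx2* in *Col15a1*-type cells was 0.866-fold (0.191 to 3.23).

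The callus fibroblasts with *Runx2* numbered 15. All 15 had *Prrx1*, 12 had *Twist1* and none had *Sp7* or *Dlx5*, where 86.1% of all callus fibroblasts had *Prrx1* and 54.1% *Twist1*. After thinning 5 had *Runx2*, of which 4 had *Prrx1* and 2 *Twist1*. The only osteoblast of the intact library, of 28004 UMIs, held 4 UMIs each of *Runx2*, *Sp7* and *Twist1*, 2 of *Prrx1* and 1 of *Dlx3*, as well as 67 UMIs of *Col2a1*. This cell was among the 12 intact cells with the highest doublet scores (Scrublet), so it may not be a single cell.

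*Runx2* was the member least restricted to stromal cells, which held 8.67% of its 150 intact and 17.1% of its 1694 callus UMIs. The highest level of any gate was in plasmacytoid dendritic cells, interferon-producing blood cells in which Runx2 also acts, at 745 CPM in the intact and 1141 CPM in the callus library. At equal depth 97.6% of 41 callus cells of that gate had a UMI. T and NK cells stood at 17.5 and 65.7 CPM, monocytes and macrophages at 5.52 and 21.3 and neutrophil-like cells at 15.7 and 13.0. A further 708 callus UMIs lay in 224 of 479 cells that passed no gate. Genes ranked highest in these untyped cells included *Prss34*, *Mcpt8* and *Cpa3* of basophils and mast cells. The myeloid genes *Ctsg*, *Mpo*, *Prtn3* and *Elane* also ranked high, so these *Runx2* UMIs are not assigned to a lineage. The other members were mostly stromal in the callus, with 100% of *Dlx3*, 97.6% of *Sp7*, 96.2% of *Twist1*, 91.0% of *Dlx5*, 87.8% of *Prrx1*, 77.0% of *Sox9* and 71.2% of *Scx* UMIs in stromal cells.

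**Figure D4:**
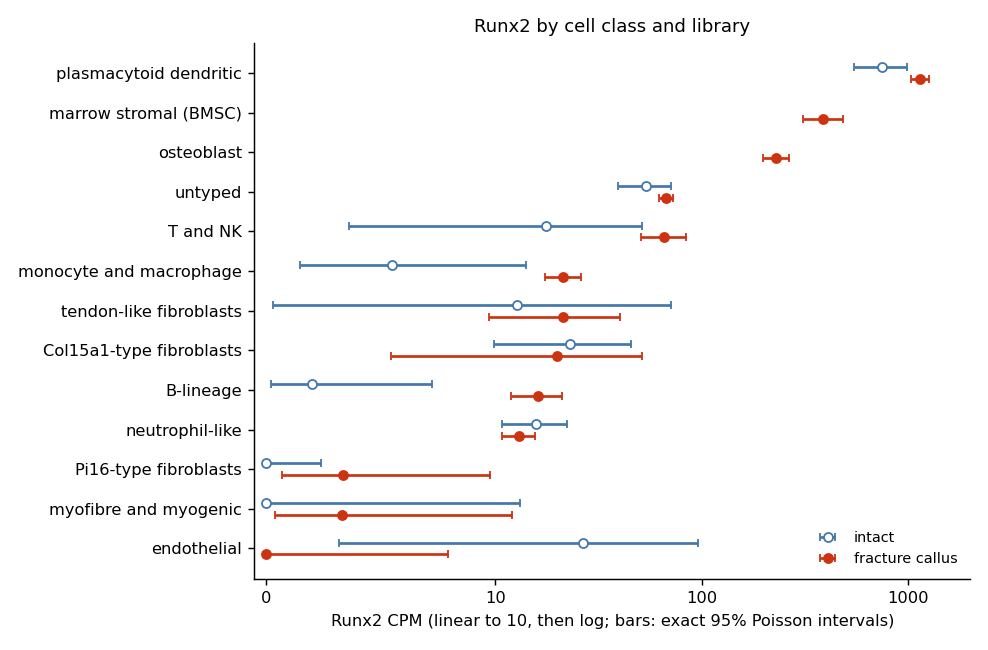
*Runx2* level (CPM, axis linear to 10 and logarithmic above) in 13 cell classes of the intact (open blue) and callus (filled red) libraries, with exact 95% Poisson intervals. Plasmacytoid dendritic cells stand highest in both libraries (745 and 1141 CPM), followed in the callus by marrow stromal cells at 388 and osteoblasts at 230 CPM.

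Other genes around these factors were read from lists in the same way. The lists were chosen with earlier results of these data known, so their counts are descriptions only. Of 16 tested partners and paralogs, 6 were higher in callus osteoblasts than in fibroblasts, 4 lower and 6 neither, with a median log2 ratio of 0.31, where 6.64% of all genes were higher and 34.9% lower. *Runx1*, the paralog of *Runx2* in blood and early skeletal cells, was 2.43-fold higher. *Runx1* was higher still in marrow stromal cells, at 1003 CPM and 11.5-fold the fibroblast level, and in fibroblasts it was 10.3-fold higher in the callus than in the intact library (6.20 to 18.1). In that comparison 2 of 13 partners were higher (*Runx1* and *Sox4*, 2.81-fold) and 1 lower, where 4.34% and 2.68% of all genes were.

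Limb and connective tissue patterning factors went the other way in osteoblasts, where 8 of 14 were lower, 0 higher and 6 neither (median log2 ratio -1.32), against 34.9% lower and a median of -0.59 over all genes. *Osr2* and *Osr1*, zinc finger factors of limb connective tissue, were at 0.00762 and 0.0523 of the fibroblast level, and *Meox2* at 0.0616. Beside the same background, 7 of 10 marrow stromal and fat regulators were lower in osteoblasts (median -1.61). Among them were *Ebf2* at 0.00991, which with 2 osteoblast UMIs could only be called lower, and *Ebf1* at 0.130. In marrow stromal cells 4 of 11 were higher and 3 lower, where 17.6% and 17.3% of all genes were, with *Cebpa*, a factor of fat cells, 27.1-fold, *Foxc1*, which maintains the marrow niche, 26.5-fold and *Ebf3* 11.8-fold above callus fibroblasts. *Foxc1* was also the only one of 10 that was past 2-fold higher in callus over intact fibroblasts, at 3.35-fold, where 4.34% of all genes were.

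Of 11 repressors and cofactors of Runx2, 6 were lower in osteoblasts than in callus fibroblasts, 1 higher and 4 neither (median log2 ratio -1.55), again beside 34.9% of all genes lower and a median of -0.59. *Zbtb16*, at 0 UMIs, was 16.5-fold lower against the floor (lower end of the interval 13.2) and could only be called lower. *Smurf1*, a ligase that marks Runx2 protein for breakdown, was at 0.163, and with 8 osteoblast UMIs it reached the minimum of 20 through fibroblasts alone. None of the 10 repressors and cofactors tested was past 2-fold between the libraries in fibroblasts, where 4.34% of all genes were higher in the callus and 2.68% lower. Osteoblast target genes that were not gate markers were higher for 15 of 16, with *Spp1* at 551-fold and *Alpl* at 420-fold, but the gate itself was set on *Bglap*, *Bglap2*, *Ifitm5*, *Dmp1* and *Ibsp*, genes known as targets of Runx2 and Sp7, so this count describes the gate. In marrow stromal cells 7 of 12 such genes were higher and 5 lower than in callus fibroblasts, where 17.6% and 17.3% of all genes were. Of 12 cartilage target genes 3 had 20 UMIs in osteoblasts and fibroblasts, and all 3 were higher in osteoblasts. All 3 reached that minimum through osteoblasts alone and could only be called higher. They were *Col2a1*, *Acan* and *Col11a2*, the last with 1633 UMIs in osteoblasts against 3 in callus fibroblasts, 1087-fold.

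The genes listed as tendon targets outside the gate were higher in tendon-like over *Pi16*-type callus cells for 6 of 11, with 0 lower and 5 neither (median log2 ratio 2.30). Because this list too was chosen with earlier results known, the count gives no support to the name of the gate. *Pdgfrl* was 11.6-fold and *Col12a1*, a collagen that binds fibril surfaces, 7.02-fold higher, where 7.55% of all genes were higher and 10.5% lower. In callus over intact fibroblasts 5 of 11 were higher and 0 lower (median 1.00), where 4.34% and 2.68% of all genes were. The callus also had the larger share of tendon-like cells. In osteoblasts over callus fibroblasts 4 were higher and 6 lower, where 6.64% and 34.9% of all genes were. *Col14a1*, at 0 UMIs in osteoblasts, was 360-fold below callus fibroblasts against the floor (lower end of the interval 293).

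Genes with the most similar pattern were ranked by Pearson's r of log2(CPM + 10) over the 7 stromal gate and library profiles, among 6116 genes, as a description over profiles that share libraries. *Sp7* was closest to *Ibsp* (r = 0.997), a bone matrix protein used in the gate, *Sorbs2* and *Pth1r* (both 0.989), the receptor of parathyroid hormone. *Dlx5* was closest to *9130024F11Rik*, *Sorbs2* (0.999) and *Ibsp* (0.995), and *Twist1* to *Prss35* (0.978), *Cgref1* (0.976) and *Insc* (0.966). *Dlx3* was closest to *Col22a1*, *Fat3* and *Slc13a5*, genes that like it were found in osteoblasts and hardly elsewhere. *Runx2* was closest to *Rnasek* (0.983), *Eif4ebp1* and *Tmem176a* (both 0.981), *Prrx1* to *Ankra2* (0.978), *Eapp* and *Pdha1* (both 0.976), *Msx1* to *Atf1* (0.990), *Ehbp1l1* (0.984) and *Fyttd1* (0.978), and *Sox9* to *Rrp1* (0.960), *Ndufs5* (0.933) and *Nolc1* (0.930). *Scx* had under 50 UMIs in stromal cells and was not ranked.

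In the GRCm38 annotation the members are protein-coding genes at chr17:44495987-44814797 (*Runx2*), chr15:102356606-102367182 (*Sp7*), chr6:6877805-6882085 (*Dlx5*), chr11:95120119-95125296 (*Dlx3*), chr12:33957671-33959829 (*Twist1*), chr1:163245119-163313710 (*Prrx1*), chr5:37820485-37824583 (*Msx1*), chr11:112782224-112787760 (*Sox9*) and chr15:76457452-76459458 (*Scx*). *Runx2* is overlapped on the other strand by *Supt3* and on the same strand by *n-R5s27*, *Prrx1* on the same strand by *Gm26523* and *Gm37644*, and *Scx* on the other strand by *Bop1*. How the counting split reads among these genes is not given in the sources used here, so the levels of these 3 members are uncertain to that extent.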

How the data were processed

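The authors sorted tdTomato+ cells, made 3′ single-cell libraries, and deposited the raw UMI counts, per gene in each cell barcode, from Cell Ranger 6.0.0 (per the file headers), aligned to mm10 per the submitters' processing notes. The annotation and the counting of overlapping genes are not given in the sources used here. Counts were summed over the cells of a gate and divided by the gate's UMIs to give CPM. A cell could enter a gate from a set minimum of marker UMIs per 10000 (fibroblast 50, osteoblast 20, marrow stromal 75, chondrocyte 20, tendon-like, *Pi16*-type and *Col15a1*-type 20, with blood markers at most 20). Where several minimums of cell classes were passed, the list highest relative to its minimum named the cell. In the callus 4 osteoblasts lay within 1.5-fold above their minimum and 5 other cells within 1.5-fold below it, and 11 and 12 for fibroblasts. These minimums were set after the data had been seen, and the members, gene lists and tests were chosen with earlier results of these data known.

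Genes with at least 20 UMIs in the 2 groups were counted as higher or lower if past 2-fold. Ratios of members under that minimum are given as values only, and a group at 0 was given a floor of 3 UMIs over the gate. Named genes were all members, up to 4 genes per list furthest from a ratio of 1 with at least 50 UMIs, and the 3 genes most like each member, of which some are not reported here. Genes of the split of osteoblasts, of the cartilage markers and of untyped cells were named after their values had been seen. Scrublet called 3 intact and 4 callus cells (0.249% and 0.121%), too few to rely on, so doublets were kept and removal of the highest scores was tried. Cells under 2500 UMIs were left out of thinned shares. Calculations used python 3.11.15, numpy 2.4.6, scipy 1.17.1, pandas 2.3.3 and scanpy 1.11.5 and were tested on simulated data. Alternatives covered the cell filter, gate minimum, doublets, clusters, per-cell means and the UMI minimum, and, chosen after seeing the data, the denominator, the highest Scrublet scores, a stricter osteoblast minimum and removal of each member's top cell.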

Additional observations from a re-analysis of the deposited data

Results flagged for a closer look

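*Msx1* stood higher in tendon-like than in *Pi16*-type fibroblasts in the intact library, with a ratio of 2.37 (0.732 to 6.0), and lower in the callus library, with a ratio of 0.256 (0.0659 to 0.720). The tendon-like counts behind these ratios were 5 UMIs in 12 intact and 4 UMIs in 44 callus cells. The difference between the 2 ratios was not tested, each library standing alone, and the intact interval includes 1. Without the richest cells the intact ratio was 1.55, no longer past 2-fold, and the callus ratio 0.142.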

How the results depend on the processing

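Of 612 levels recomputed under the alternatives 601 stayed within the counting interval, and of 303 ratios 291 did, 10 moved and 2 turned direction. Those 2 were *Msx1* in tendon-like over *Pi16*-type intact cells, at 0 with the gate minimum doubled and 0.838 with Leiden clusters in place of gates. Other kinds of result were less stable. Shares of cells moved in 82 of 180 cases, 49 of them when a positive cell needed 2 UMIs and 33 in unthinned cells. Co-detection moved in 27 of 52 cases on thinning. Counts past 2-fold, judged by a set factor of change, moved in 47 of 280 cases, 25 of them with no UMI minimum beyond 1. *Runx2* in osteoblasts over callus fibroblasts ranged from 18.8 to 31.0 and *Scx* from 2.36 to 4.25 and kept their side of 2-fold in all 11 alternatives, *Twist1* ranged from 1.73 (top cells of both gates left out) to 3.39, and *Runx2* in marrow stromal cells from 34.1 to 42.9. *Sox9* in marrow stromal cells fell to 1.83 without the highest Scrublet scores. The *Dlx5* call in marrow stromal cells was lost in that case and also with the gate minimum doubled. With no UMI minimum beyond 1, genes past 2-fold numbered 1878 higher and 6473 lower in osteoblasts over fibroblasts, 3682 and 4738 in marrow stromal cells over fibroblasts, and 2410 and 2102 in callus over intact fibroblasts. They numbered 2473 and 3700 (intact) and 2252 and 3891 (callus) in *Col15a1*-type over *Pi16*-type cells, and 2201 and 6460 (intact) and 2395 and 3354 (callus) in tendon-like over *Pi16*-type cells. With marker genes left out of the denominator 1171 genes were higher and 1928 lower in osteoblasts, and with Leiden clusters 509 genes were higher in tendon-like intact cells. Leiden clusters gave no marrow stromal value, because the cells of that gate fell in a cluster named osteoblast. No paired analysis was possible because each condition is 1 library. Depth limits the members at 0 to 9 UMIs in a gate, *Scx*, *Msx1*, *Sox9* and fibroblast *Runx2* above all.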
